A study of Gallus gallus with 60 samples.

Results

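IFIT5, MX1, RNF213, NFKB1, TLR4 and TLR21 are 6 genes of the antiviral and bacterial defence of the chicken, and their expression was measured in the cerebrum of 60 laying hens. They were taken by symbol, as every row of the deposited expression table whose first probe set carries one of these platform symbols. Each symbol had exactly 1 row, so the genes make up 6 of the 20396 rows of the array, and all 6 rows lay above the filter on low values (16317 rows tested). The 6 genes were proposed with their differences between the layer lines in view. These differences are therefore given below as a description, with their spread and without p-values, whereas the effect of the group size and its dependence on the line were not used in the choice and were tested. The correlations between the 6 genes within each line were named together with the genes, so they are also a description.

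Total RNA came from the posterior cerebrum without meninges, with 1 array per hen. Lohmann Selected Leghorn (LSL), a commercial line that lays white eggs, was represented by 14 hens kept in groups of 54 and 16 hens kept in groups of 36. Lohmann Brown (LB), a commercial line that lays brown eggs, was represented by 16 hens from groups of 54 and 14 hens from groups of 36. All hens were 65 to 68 weeks old, shared 1 housing system, feed and a standard vaccination program, and had been picked for sampling across birds judged stressed and unstressed by behaviour, plumage and skin lesions. Each compartment held hens of only 1 line and gave several hens to the study, so that p-values over hens may be too small, and neither tier nor compartment was used here. The values are log2 expression after robust multi-array averaging, a procedure that corrects the background, equalises the distribution of all arrays and summarises the probes of a row. Array medians were the same in all hens (6.86), as this procedure makes them. The arrays fell into a larger set of 42 and a smaller set of 18 (10 LSL and 8 LB hens) on the first principal component after removal of the group means, which carried 24.5% of the variance within groups and for which the labels give no reason. As a check of the tissue, neuron markers were expressed in both lines, with SNAP25 at 12.19 ± 0.13 in LSL and 12.19 ± 0.13 in LB (SD, n = 30 each). Of 6 tested neuron markers (9 symbols listed) 1 passed between the lines, GAD2, which fell by 0.18 in LSL (adjusted p = 0.0395, limma). Of 2 tested oligodendrocyte markers (8 symbols listed) 1 passed, MBP, which rose by 0.10 (adjusted p = 0.0198, limma). With hens of neighbouring numbers as a random block, GAD2 (adjusted p = 0.0712, limma) and MBP (adjusted p = 0.0697) no longer passed.

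Interferons are secreted when a cell detects viral nucleic acid, bind receptors on the same and on neighbouring cells, and act through JAK kinases and STAT factors to switch on a large set of antiviral genes. Toll-like receptors detect microbial molecules at the cell surface or in endosomes and act through the adaptor MyD88 and its relatives on the transcription factor NF-kappaB and on interferon regulatory factors. In the brain, microglia and other macrophages carry most of the Toll-like receptors, while nearly every cell type can answer an interferon. Birds differ from mammals in several of these genes. The chicken has a single gene of the IFIT family, IFIT5, and it has TLR21, a receptor of unmethylated CpG DNA that takes the place of the mammalian TLR9.

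The 3 genes that are known interferon-induced effectors, IFIT5, MX1 and RNF213, were all lower in LSL than in LB. IFIT5, which binds viral RNA, had a lowest, median and highest value of 5.36, 6.16 and 7.58 in LSL, against 6.01, 6.83 and 7.73 in LB. The ranges overlapped over most of their length, although 12 of 30 LSL hens lay below every LB hen and 29 of 30 LB hens lay above the LSL median. IFIT5 averaged 6.21 ± 0.54 in LSL and 6.85 ± 0.41 in LB (SD, n = 30 each), a difference of -0.64 on the log2 scale (SE 0.12), or 1.55-fold. Its row lists only 1 probe set, against a median of 7 over all tested rows. The rows of RNF213 and TLR4 list 4 each and that of TLR21 lists 3, while MX1 has 16 and NFKB1 20.

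MX1, a dynamin-like GTPase that is induced by type I interferon, had 4.77, 5.47 and 6.67 as its lowest, median and highest value in LSL, against 5.37, 5.90 and 6.62 in LB. The highest value of all 60 hens belonged to an LSL hen, yet 11 of 30 LSL hens lay below every LB hen. The means were 5.50 ± 0.38 in LSL and 5.90 ± 0.26 in LB (SD, n = 30 each), a difference of -0.40 (SE 0.082), or 1.32-fold. The lowest LSL values of MX1, 4.77, 5.03 and 5.04 in hens 29, 34 and 33, lay below 5.08, the limit that the filter set on row means.

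RNF213, a very large ubiquitin ligase with an ATPase domain that takes part in the defence against viruses and bacteria in mammals, had the widest gap between the lines. Its lowest, median and highest values were 4.89, 6.17 and 6.93 in LSL, against 6.27, 7.16 and 7.91 in LB. Of the LSL hens, 19 of 30 lay below every LB hen, and of the LB hens, 22 of 30 lay above every LSL hen and all 30 above the LSL median. RNF213 averaged 6.07 ± 0.53 in LSL and 7.17 ± 0.40 in LB (SD, n = 30 each), a difference of -1.10 (SE 0.12), or 2.14-fold. It is the only one of the 6 genes with a difference of at least 2-fold, a size that 0.215% of all tested rows combined with an adjusted p under 0.05.

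NFKB1 encodes the precursor of the p50 subunit of NF-kappaB, on which the Toll-like receptor and many cytokine pathways converge. Its lowest, median and highest values were 6.66, 7.21 and 7.55 in LSL, against 6.99, 7.56 and 7.76 in LB. Every LSL hen lay below the LB median and 9 of 30 lay below every LB hen, while 15 of 30 LB hens lay above the highest LSL hen and 26 of 30 above the LSL median. The means were 7.12 ± 0.25 in LSL and 7.49 ± 0.22 in LB (SD, n = 30 each), a difference of -0.37 (SE 0.059), or 1.29-fold.

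The Toll-like receptors pointed in opposite directions. TLR4, which detects bacterial lipopolysaccharide together with its coreceptor MD-2, had 5.83, 6.25 and 6.81 as its lowest, median and highest value in LSL, against 6.11, 6.51 and 6.94 in LB. It averaged 6.25 ± 0.23 in LSL and 6.52 ± 0.19 in LB (SD, n = 30 each), a difference of -0.27 (SE 0.053), or 1.21-fold, and 27 of 30 LSL hens lay below the LB median. TLR21 had 5.49, 5.84 and 6.24 in LSL, against 5.27, 5.67 and 6.05 in LB. It was the only one of the 6 genes that was higher in LSL, with 5.84 ± 0.19 in LSL and 5.71 ± 0.18 in LB (SD, n = 30 each), a difference of 0.13 (SE 0.047), or 1.09-fold, and most of both ranges was shared.

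For reference to the whole array, in the fit across all rows (limma, Benjamini-Hochberg adjustment), 6 of the 6 genes had an adjusted p under 0.05, 5 of them lower and 1 higher in LSL, where 22.8% of all tested rows passed, 11.9% lower and 10.8% higher. With neighbouring hens as a random block, 5 of the 6 did, without TLR21, beside 17.0% of all rows. Since the genes were chosen on this contrast, neither count is a test of them and nothing is read from either. The median difference over all tested rows was 0.0026. The marker lists were chosen with earlier results of these data known. They named 15 symbols for microglia and macrophages (8 genes with a row), 11 for B and plasma cells (5) and 9 for T cells (8). Of the microglia and macrophage markers, 0 of the 7 tested genes passed, 1 (CX3CR1) was below the filter, and the mean of the 7 ran from 7.20 to 7.79 in LSL hens and from 7.12 to 7.70 in LB hens. With the array set as a block, CSF1R passed, lower in LSL (adjusted p = 0.0473, limma). Of the B cell and plasma cell markers, 1 of 5 passed, the immunoglobulin linker JCHAIN, which rose by 1.44 in LSL (adjusted p = 2.5e-04), and the mean of the 5 ran from 5.87 to 7.06 in LSL hens and from 5.96 to 6.55 in LB hens. Of the T cell markers, 1 of 7 passed, the costimulatory receptor CD28, which rose by 0.31 (adjusted p = 5.1e-05), and the mean of the 7 ran from 5.72 to 6.22 in LSL hens and from 5.65 to 6.25 in LB hens. The part of these cells in the differences of the 6 genes was not tested. In whole tissue, fewer cells of a type and less RNA per cell cannot be told apart.

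**Figure D1:**
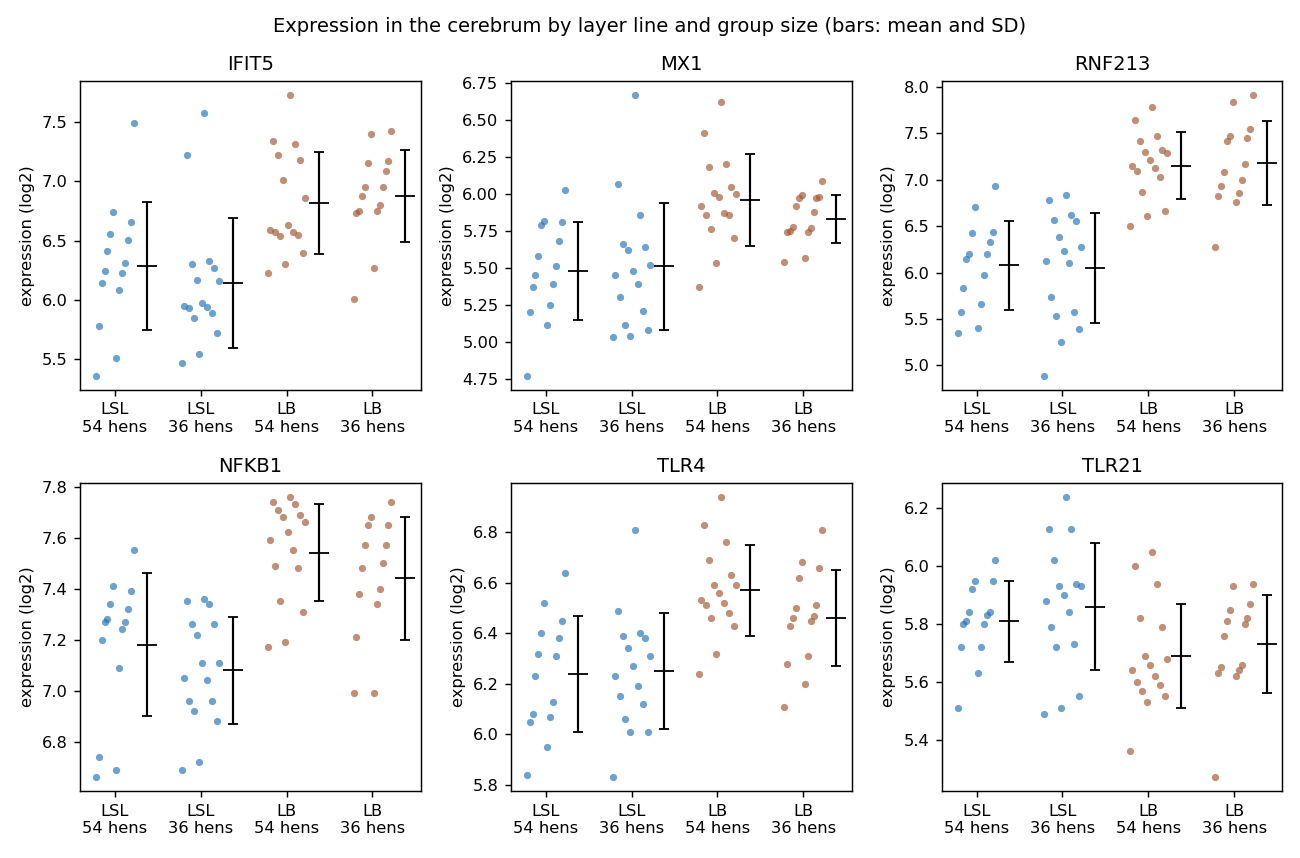
Expression (log2) of each gene in every hen, as points, by layer line and group size, with the mean and SD of each group as a bar to the right of its points. LSL hens (blue) lie lower than LB hens (brown) for IFIT5, MX1, RNF213, NFKB1 and TLR4 and slightly higher for TLR21, and the groups of 54 and of 36 of a line overlap for every gene.

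The differences kept their direction in every subset of hens that was examined. Because the genes were chosen on this contrast in these same hens, this is a description and no independent support. RNF213 differed by -1.07 (SE 0.15) among hens of groups of 54 and by -1.13 (SE 0.18) among hens of groups of 36. NFKB1 differed by -0.37 in groups of 54 and by -0.36 in groups of 36, and IFIT5 by -0.53 (SE 0.17) in groups of 54 and by -0.74 (SE 0.17) in groups of 36. The difference of MX1 was -0.48 in groups of 54 and -0.32 in groups of 36, that of TLR4 was -0.32 in groups of 54 and -0.21 in groups of 36, and that of TLR21 was 0.12 in groups of 54 and 0.13 in groups of 36. Whether these pairs of values differ is tested by the interaction below. In the larger array set alone, the differences were -0.65 for IFIT5, -0.45 for MX1, -1.02 for RNF213, -0.34 for NFKB1, -0.30 for TLR4 and 0.085 for TLR21. In the smaller array set alone, they were -0.55 for IFIT5, -0.30 for MX1, -1.16 for RNF213, -0.36 for NFKB1, -0.19 for TLR4 and 0.18 for TLR21. TLR21 was the gene with the least margin: its difference plus and minus 2 SE ran from 0.032 to 0.22 over all hens, and from -0.0022 to 0.17 in the larger array set alone.

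**Figure D2:**
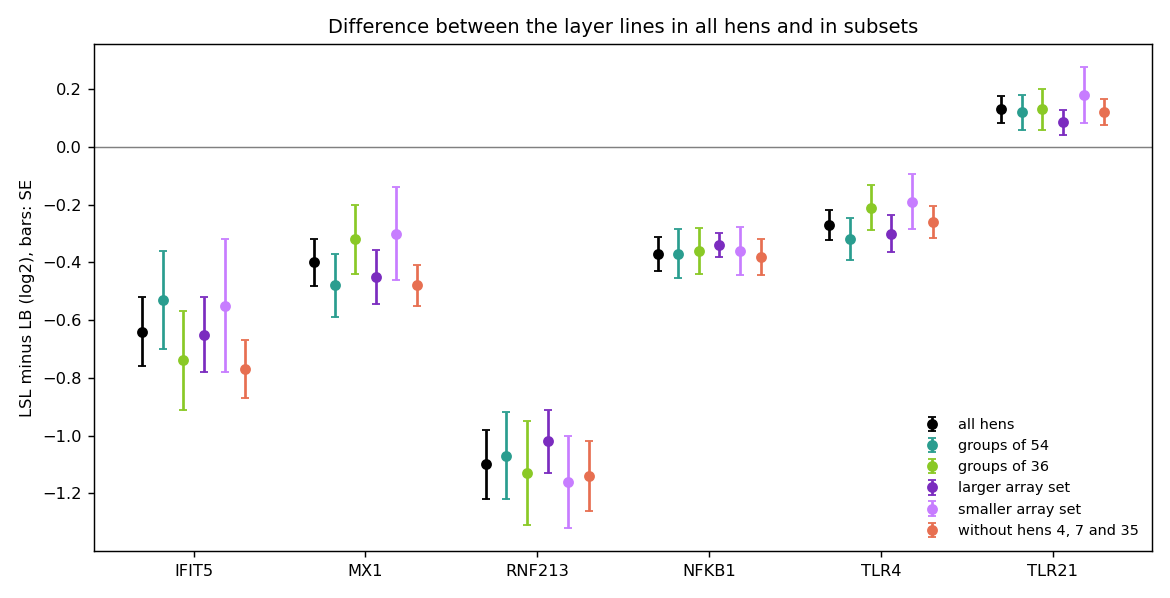
Difference LSL minus LB (log2, bars are the SE) of each gene over all hens, in the groups of 54 and of 36, in the larger and the smaller array set, and without the 3 LSL hens of highest IFIT5. RNF213 stays near -1.10 in each subset, while IFIT5 and MX1 move further from 0 when hens 4, 7 and 35 are left out (-0.77 and -0.48).

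The group size, the second factor of the study, asks whether hens housed in larger groups differ from hens in smaller ones. None of the 6 genes passed (limma, n = 30 hens each), and 0% of all tested rows did, with 888 rows at an unadjusted p under 0.05 and 898 by the methods' t-test, which also passed 0 rows after adjustment. NFKB1 had the largest difference, with a mean of 7.37 ± 0.30 in groups of 54 and 7.25 ± 0.29 in groups of 36 (SD), 0.13 higher in the larger groups (SE 0.074, adjusted p = 0.874). IFIT5 averaged 6.57 ± 0.55 in groups of 54 and 6.49 ± 0.61 in groups of 36, a difference of 0.081 (SE 0.14, adjusted p = 0.954). MX1 differed by 0.076 (SE 0.096, adjusted p = 0.933), RNF213 by 0.078 (SE 0.18, adjusted p = 0.97), TLR4 by 0.066 (SE 0.063, adjusted p = 0.914) and TLR21 by -0.052 (SE 0.049, adjusted p = 0.91). All differences were smaller than the spread between hens of 1 group. This fit leaves out the line, and the lines are not evenly spread over the group sizes. With the line as a covariate, the difference was 0.0042 for RNF213 (SE 0.12, adjusted p = 0.998) and 0.039 for IFIT5 (SE 0.12, adjusted p = 0.974), and 2 SE on either side then ran from -0.23 to 0.24 for RNF213 and from -0.14 to 0.049 for TLR21. For MX1 it was 0.049 in that fit, also under 1 SE.

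No dependence of the group size effect on the line was detected. The interaction, that is the difference 54 minus 36 in LSL minus that in LB, was 0.21 for IFIT5 (SE 0.24), -0.15 for MX1 (SE 0.17), 0.057 for RNF213 (SE 0.24), -0.0048 for NFKB1 (SE 0.12), -0.11 for TLR4 (SE 0.11) and -0.012 for TLR21 (SE 0.094). Each had an adjusted p of 1 (limma), and 0% of all tested rows passed, with 802 rows at an unadjusted p under 0.05. In LSL alone IFIT5 was 6.29 ± 0.54 in the 14 hens of groups of 54 and 6.14 ± 0.55 in the 16 hens of groups of 36, and in LB it was 6.82 ± 0.43 in 16 hens and 6.88 ± 0.39 in 14 hens (SD). The SD of MX1 was 0.31 in LB hens from groups of 54 and 0.16 in LB hens from groups of 36, the smallest of the 4 groups.

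Values of the interferon-induced genes spread widely between hens. The SD within the 4 groups was 0.48 for IFIT5, larger than that of 97.7% of tested rows, 0.48 for RNF213 (97.6%) and 0.33 for MX1 (89.6%), where the median row had 0.18. Among rows with a mean within 0.5 of their own, these shares were 97.4% for IFIT5, 97.4% for RNF213 and 80.0% for MX1. NFKB1 (0.23), TLR4 (0.21) and TLR21 (0.18) were nearer to the median row, with 71.8%, 53.1% and 27.5% of the rows of like level below them. Part of the spread of RNF213 lay between the array sets. In LSL it averaged 6.29 ± 0.44 in the larger and 5.62 ± 0.41 in the smaller set, in LB 7.31 ± 0.33 and 6.78 ± 0.30 (SD). For NFKB1 the means were 7.26 and 6.85 in LSL and 7.60 and 7.21 in LB. For MX1 they were 5.48 and 5.53 in LSL and 5.92 and 5.83 in LB. The part of the single probe set of IFIT5 in its spread was not tested. IFIT5 in particular had a few LSL hens at the level of the highest LB hens: hen 35 with 7.58, hen 7 with 7.49 and hen 4 with 7.22, while the LSL median was 6.16. Hen 35 was also the highest LSL hen for MX1 (6.67), for ZNFX1 (6.27) and for IFI6 (6.70) and the second highest for RNF213 (6.83) and PARP14 (6.64). Hen 4 ranked second for MX1 (6.07), IFI6 (6.54) and ZNFX1 (5.91) and first for TLR21 (6.24) and for the RNA-activated kinase EIF2AK2 (8.24), but 13th for RNF213 (6.23). These ranks are over both array sets, and hen 4 lay in the smaller set. Among the LSL hens of that set, its RNF213 value was the highest. TLR21 averaged 5.98 in LSL hens of the smaller set and 5.77 in those of the larger set. Hen 7 ranked sixth for MX1 (5.81) and 11th for RNF213 (6.33). ZNFX1, IFI6 and PARP14 are among the genes nearest to IFIT5 or MX1 over these same hens, so their ranks here are a description only. Other genes ranked lower in these hens, with hen 4 in place 24 of 30 for NMI (5.89) and hen 35 in place 14 for EIF2AK2 (7.94). In LB, hen 20 had the second highest IFIT5 value (7.43) but the lowest of its line for RNF213 (6.27), PARP14 (5.92) and NMI (5.28). Hen 20 also lay in the smaller array set. Hen 27 had the highest IFIT5 value (7.73) and ranked second for IFI6 and PARP14, and hen 57 ranked second for MX1 (6.41) and first for ZNFX1 (6.40).

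Hens with neighbouring numbers, an odd number and the next even one, always had the same line and group size and lay in the same array set. The high values were not shared by these neighbours. Beside hens 35, 7 and 4, the neighbours 36, 8 and 3 had IFIT5 values of 5.97, 5.51 and 5.54, so that the largest gap within a pair, 1.98, exceeded the whole difference between the line means. The intraclass correlation over the 15 pairs of a line, as a description, was -0.36 in LSL and 0.23 in LB for IFIT5, and -0.14 in LSL and -0.49 in LB for MX1. Neighbours were more alike in RNF213 (0.68 in LSL, 0.50 in LB) and in NFKB1 (0.61 in LSL, 0.63 in LB). With the array set means also subtracted, the value was 0.53 in LSL and 0.27 in LB for RNF213, and -0.03 in LSL and -0.026 in LB for NFKB1.

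Among LSL hens, IFIT5, MX1 and RNF213 went together from hen to hen. In this line, IFIT5 and MX1 had a Pearson r of 0.65 (Spearman rho 0.50, n = 30 hens), IFIT5 and RNF213 had 0.54 (rho 0.54), and MX1 and RNF213 had 0.51 (rho 0.54). These values are descriptions without a test, and the arrays share their normalisation. With the array set means subtracted they were 0.68, 0.54 and 0.69. In LB the same pairs had 0.46 (rho 0.48), 0.35 (rho 0.36) and 0.15 (rho 0.091), and 0.44, 0.18 and 0.064 with the set means subtracted. The difference between the lines in these correlations was not tested. The counts of rows that follow place these r on the scale of the array. They are a description too, and no independent support. Of the 16316 other rows, 4 had a higher r with IFIT5 than MX1 had in LSL, and 275 in LB. With RNF213, 1180 rows had a higher r than IFIT5 had in LSL, and 2854 in LB. For MX1 in place of IFIT5, these were 1644 in LSL and 5610 in LB. With the array set means subtracted, they were 106 for IFIT5 and 6 for MX1 in LSL, and 2892 and 6167 in LB. Taken from the other gene, 21 rows had a higher r with IFIT5 than RNF213 had in LSL, and 1292 in LB. With MX1, 51 rows did in LSL, and 3497 in LB.

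Part of these values rests on few hens. Without the 2 LSL hens farthest from the median of IFIT5, its r with MX1 was 0.49, and without hens 4, 7 and 35 it was 0.37. The r of IFIT5 with RNF213 was 0.51 without the 2 farthest hens and 0.55 without hens 4, 7 and 35. The highest r of all pairs was that of RNF213 with NFKB1, 0.68 in LSL and 0.56 in LB, and it was 0.41 in LSL and 0.17 in LB with the array set means subtracted. TLR21 ran opposite to RNF213 (r = -0.54) and NFKB1 (r = -0.46) in LSL, and with the set means subtracted these were -0.31 and -0.072. TLR4 had r between -0.16 and 0.13 with the other 5 genes in LSL and between 0.028 and 0.27 in LB. Over the 15 pairs of genes, the median r was 0.06 in LSL and 0.23 in LB, so the 6 genes did not all go together.

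**Figure D3:**
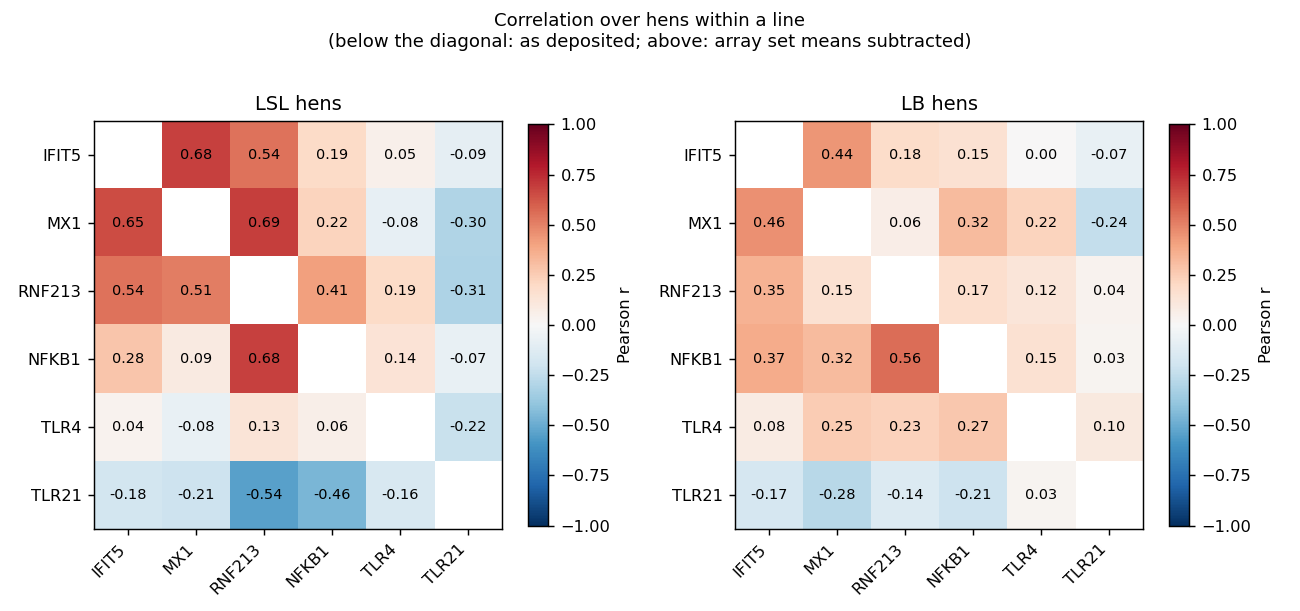
Pearson r over 30 hens for each pair of genes in LSL (left) and LB (right), below the diagonal for the values as deposited and above it with the array set means subtracted. In LSL the pairs among IFIT5, MX1 and RNF213 keep r of 0.54 or more above the diagonal, while RNF213 with NFKB1 is 0.41 there against 0.68 below it.

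The genes most like each of the 6 were sought across all 60 hens after subtraction of the group means. For MX1 these were ZNFX1, a helicase that senses double-stranded RNA in mammals (r = 0.76), IFI6, an interferon-induced mitochondrial protein listed on the platform as ISG12-2 (0.68), and IFIT5 (0.61). For IFIT5 they were MX1 (0.61), IFI6 (0.59) and PARP14, an interferon-induced ADP-ribosyltransferase (0.57). For RNF213 they were NMI, which binds STAT factors (0.72), TIMM9, a chaperone of mitochondrial import (0.69), and PARP14 (0.68). With the array set means also subtracted, ZNFX1 (0.71), the microRNA gene row MIR1653 (0.57) and IFI6 (0.56) came first for RNF213, so that all of IFIT5, MX1 and RNF213 then had IFI6 among their 3 nearest genes.

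TLR4 was nearest to CSF1R, the growth factor receptor that microglia depend on (r = 0.57), to the neuronal kinase CAMK1G (0.57) and to the polyamine oxidase SMOX (0.55). With the set means subtracted CSF1R (0.64) was followed by TLR7, a receptor of single-stranded RNA (0.61), and by TMEM8B (0.58). Of the 7 microglia markers, 5 had an r above 0.3 with TLR4, compared with 5.45% of all rows. The r of TLR4 with the mean of these 7 markers was 0.41 in LSL and 0.53 in LB, and with the set means subtracted it was 0.52 in LSL and 0.73 in LB. Marker means of other cell types also went with TLR4: r was -0.14 in LSL and 0.55 in LB for astrocyte markers, 0.20 in LSL and 0.42 in LB for B cell and plasma cell markers, and -0.32 in LSL and -0.52 in LB for T cell markers. With the set means subtracted, these were -0.14 and 0.53, 0.20 and 0.44, and -0.35 and -0.50. Neuron markers then had -0.43 in LSL and -0.42 in LB, against -0.25 and -0.005 as deposited. Meninges and choroid plexus markers then had -0.26 and -0.35, endothelium markers 0.27 and 0.28, and oligodendrocyte markers 0.21 and 0.35. Single markers followed less. Over all hens, 1 of the 5 B cell and plasma cell markers had an r above 0.3 with TLR4 (median r -0.13). Of the 4 astrocyte markers, 0 did (median r 0.023). JCHAIN had the largest SD of the 5 B cell and plasma cell markers (1.39 in LSL, 1.07 in LB) and so weighs most in their mean. CSF1R did not pass between the lines (8.43 ± 0.26 in LSL, 8.58 ± 0.22 in LB, SD, n = 30 each, difference -0.15, adjusted p = 0.0609, limma). With the array set as a block, CSF1R passed (adjusted p = 0.0473, limma). The median difference of the 7 microglia markers was 0.007, with 0.11 for TIMD4 and 0.062 for TREM2.

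NFKB1 was nearest to the endosomal protein gene ZFYVE21 (r = 0.83), to the potassium-chloride cotransporter SLC12A4 (0.82) and to DISC1 (0.81), none of which belongs to the lists of interferon or Toll-like receptor genes. With the set means subtracted, its nearest genes were CUL4A (0.55), GIN1 (0.55) and SLC7A6OS (0.52), so none of the first 3 remained. The mean of 6 neuron markers had an r of 0.67 in LSL and 0.63 in LB with NFKB1. With RNF213 it had 0.52 in LSL and 0.44 in LB. With the set means subtracted, these were -0.004 and -0.20 for NFKB1 and -0.023 and -0.20 for RNF213. The part of neurons in these values was not tested. TLR21 was nearest to RNPC3, a protein of the minor spliceosome (0.59), to the chromatin protein CBX3 (0.57) and to LOC427545 (0.54), and with the set means subtracted to CTNS (0.49), ETNK1 (0.47) and SLC7A9 (0.47).

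**Figure D4:**
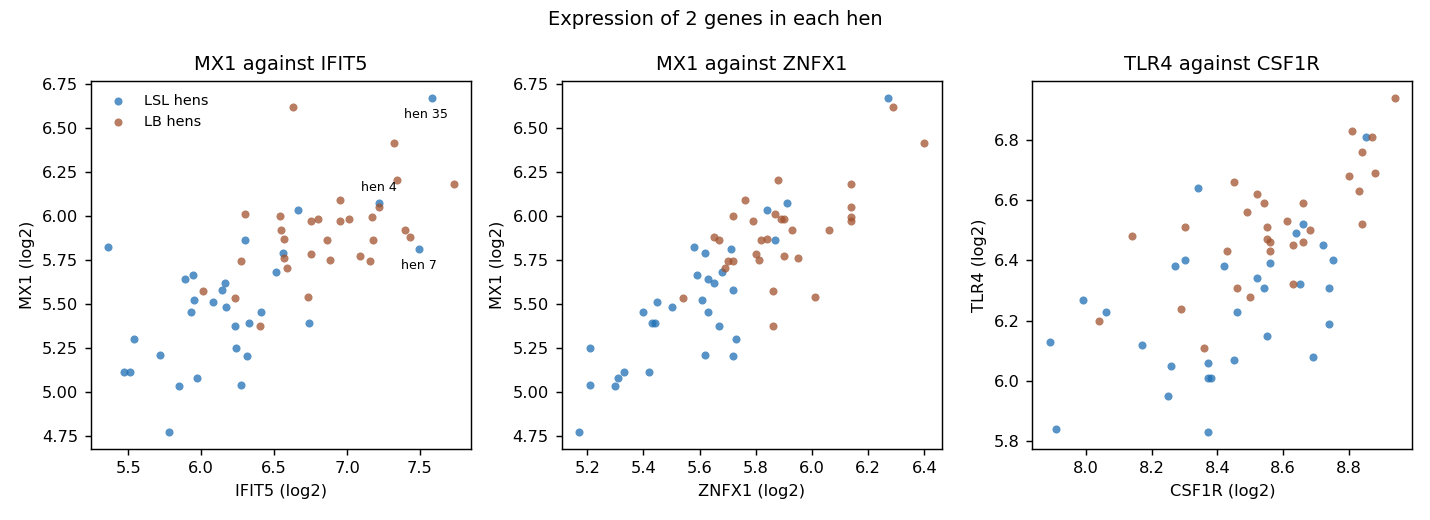
Expression (log2) of MX1 against IFIT5, of MX1 against ZNFX1 and of TLR4 against CSF1R, with 1 point per hen (LSL blue, LB brown). MX1 rises with ZNFX1 over the 60 hens (r = 0.76 after subtraction of the group means, not computed for each line). Hens 35, 7 and 4 stand out among LSL hens for IFIT5, and TLR4 is higher in hens with more CSF1R.

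Other genes of the same pathways were set beside the 6 genes. The lists were chosen with earlier results of these data known, so their counts are a description and no independent support. The same holds for the adjusted p-values of their genes below. Over 5 lists that leave out the 6 genes, 69 genes were tested, of which 20 passed between the lines (29.0%), 8 higher and 12 lower in LSL. Of all 7196 genes with a single symbol, 23.3% passed, 783 higher and 894 lower. The median differences of the 5 lists lay between -0.059 and -0.0088, beside -0.0013 over all genes. Many listed symbols had no tested row. The interferon-stimulated list named 43 symbols (19 genes tested) and the receptor and JAK-STAT list 36 (12 tested). The lists of cytosolic sensing, Toll-like receptors and NF-kappaB named 25, 45 and 35 (10, 18 and 11 tested).

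Among 19 genes listed as interferon-stimulated, which take in the IFITM relatives IFITM5 and IFITM10, 3 fell and 2 rose in LSL and 14 did not pass. ZNFX1 averaged 5.57 ± 0.24 in LSL and 5.90 ± 0.20 in LB (SD, n = 30 each) and fell by 0.32 on the log2 scale (SE 0.056, adjusted p = 7.3e-06). PARP14 fell by 0.25 (adjusted p = 0.00366), and TRIM25, a ubiquitin ligase of the RNA sensing pathway, fell by 0.17 (adjusted p = 0.00861). IFITM10 (0.18, adjusted p = 7.7e-04), a relative of the antiviral IFITM proteins, and SHISA5 (0.19, adjusted p = 2.2e-05), a membrane protein of the endoplasmic reticulum, rose. IFI6 (-0.17, adjusted p = 0.214) and CMPK2 (0.051, adjusted p = 0.589) did not pass between the lines, although over all hens their r with IFIT5 was 0.59 for IFI6 and 0.50 for CMPK2 and their r with MX1 was 0.68 for IFI6 and 0.44 for CMPK2. EIF2AK2 did not pass either (-0.034, adjusted p = 0.689), and its r was -0.011 with IFIT5 and 0.025 with MX1. The mean of the 19 genes correlated with MX1 at r = 0.83 in LSL and 0.58 in LB, with IFIT5 at 0.61 in LSL and 0.41 in LB, with RNF213 at 0.54 in LSL and 0.39 in LB, and with NFKB1 at 0.055 in LSL and 0.19 in LB. This mean includes ZNFX1, IFI6, PARP14 and NMI, which are among the genes nearest to IFIT5, MX1 or RNF213 over these same hens. The r of the mean is therefore a description only. Single genes followed less: over all hens, 5 of the 19 had an r above 0.3 with MX1 (median r 0.17), beside 1.73% of all rows. With IFIT5 6 did (median r 0.10), beside 4.98%, and with RNF213 6 (median r 0.038), beside 23.1%. With the array set means also subtracted, 5 did for RNF213, beside 4.28%. The mean of 5 endothelium markers, of which 0 passed between the lines, also went with MX1, at 0.37 in LSL and 0.63 in LB. With the array set as a block, CLDN5 passed (adjusted p = 0.0384, limma). Of the single markers, 1 of the 5 had an r above 0.3 with MX1 over all hens (median r 0.21). With the array set means also subtracted, 2 did (median r 0.24). The range of the mean was 7.23 to 7.65 in LSL hens and 7.16 to 7.62 in LB hens, and its part in the values of MX1 was not tested.

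Interferons themselves were not open to a comparison here: the list held a row only for IFNG, which was below the filter, and none for other interferons. Among 12 genes of interferon receptors and JAK-STAT signalling, 1 fell, 2 rose and 9 did not pass. IFNLR1, the receptor chain of the lambda interferons, fell by 0.26 in LSL (adjusted p = 5.4e-06), and with MX1 it had an r of 0.39. PTPN2, a phosphatase that switches off JAK and STAT proteins, rose by 0.22 (adjusted p = 8.8e-06), and PIAS2, an inhibitor of STAT factors, rose by 0.11 (adjusted p = 4.7e-06). IFNAR1 of the type I receptor had a difference of -0.089 (adjusted p = 0.058) and the regulatory factor IRF7 of -0.024 (adjusted p = 0.699). Among 10 genes of cytosolic nucleic acid sensing, 3 fell, none rose and 7 did not pass. MAVS, the mitochondrial adaptor of the RNA sensors, fell by 0.20 (6.56 ± 0.10 in LSL, 6.76 ± 0.09 in LB, SD, n = 30 each, adjusted p = 1.4e-08), ATG5 of the autophagy machinery fell by 0.088 (adjusted p = 0.0421), and TRIM25 is also in this list. The sensors IFIH1 (-0.063, adjusted p = 0.326) and DHX58 (0.021, adjusted p = 0.705) did not pass.

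Among 18 Toll-like receptors, coreceptors and adaptors, 4 fell, 2 rose and 12 did not pass. LY96, which encodes MD-2 and binds lipopolysaccharide together with TLR4, fell in LSL by 0.28 (5.82 ± 0.30 in LSL, 6.09 ± 0.30 in LB, SD, n = 30 each, adjusted p = 0.00431), the same direction as TLR4, and its r with TLR4 was 0.40. CD14, which hands lipopolysaccharide to this pair, did not pass (-0.03, adjusted p = 0.746). IRAK1BP1, a binding partner of the kinase IRAK1, fell by 0.23 (adjusted p = 2.8e-07), the row with the platform symbol PELI1, a ubiquitin ligase for IRAK kinases, fell by 0.20 (adjusted p = 2.2e-06; RefSeq gives this symbol as an older name of PELI3, so which of these related genes the row measures is unsure), and TIRAP, the adaptor of TLR4, fell by 0.13 (adjusted p = 0.0153). LY86, the partner of the receptor CD180, rose by 0.23 (adjusted p = 0.0223), and the kinase MAP3K7 rose by 0.08 (adjusted p = 0.0135). The other tested receptors TLR2A (0.077, adjusted p = 0.267), TLR5 (-0.04, adjusted p = 0.689) and TLR7 (0.16, adjusted p = 0.284) and the adaptor MYD88 (-0.024, adjusted p = 0.787) did not pass.

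Among 11 subunits, inhibitors and kinases of NF-kappaB, 2 fell, 2 rose and 7 did not pass. NFKB2, the second precursor subunit, had a difference of 0.062 (adjusted p = 0.26), and the kinase CHUK, which had an r of 0.74 with NFKB1, one of -0.024 (adjusted p = 0.762). This r was 0.25 with the array set means subtracted. COMMD1, which ends NF-kappaB activity (0.18, adjusted p = 0.00553), and TNIP1, a partner of the inhibitor A20 (0.12, adjusted p = 0.0464), rose in LSL. BIRC2, a ubiquitin ligase of the tumour necrosis factor receptor complex, fell by 0.12 (adjusted p = 8.4e-04), and NKIRAS2, an inhibitor of NF-kappaB release, fell by 0.092 (adjusted p = 0.0338). With neighbouring hens as a random block, ATG5, LY86, TIRAP, TNIP1 and NKIRAS2 no longer passed, and the other 15 of the 20 genes did.

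**Figure D5:**
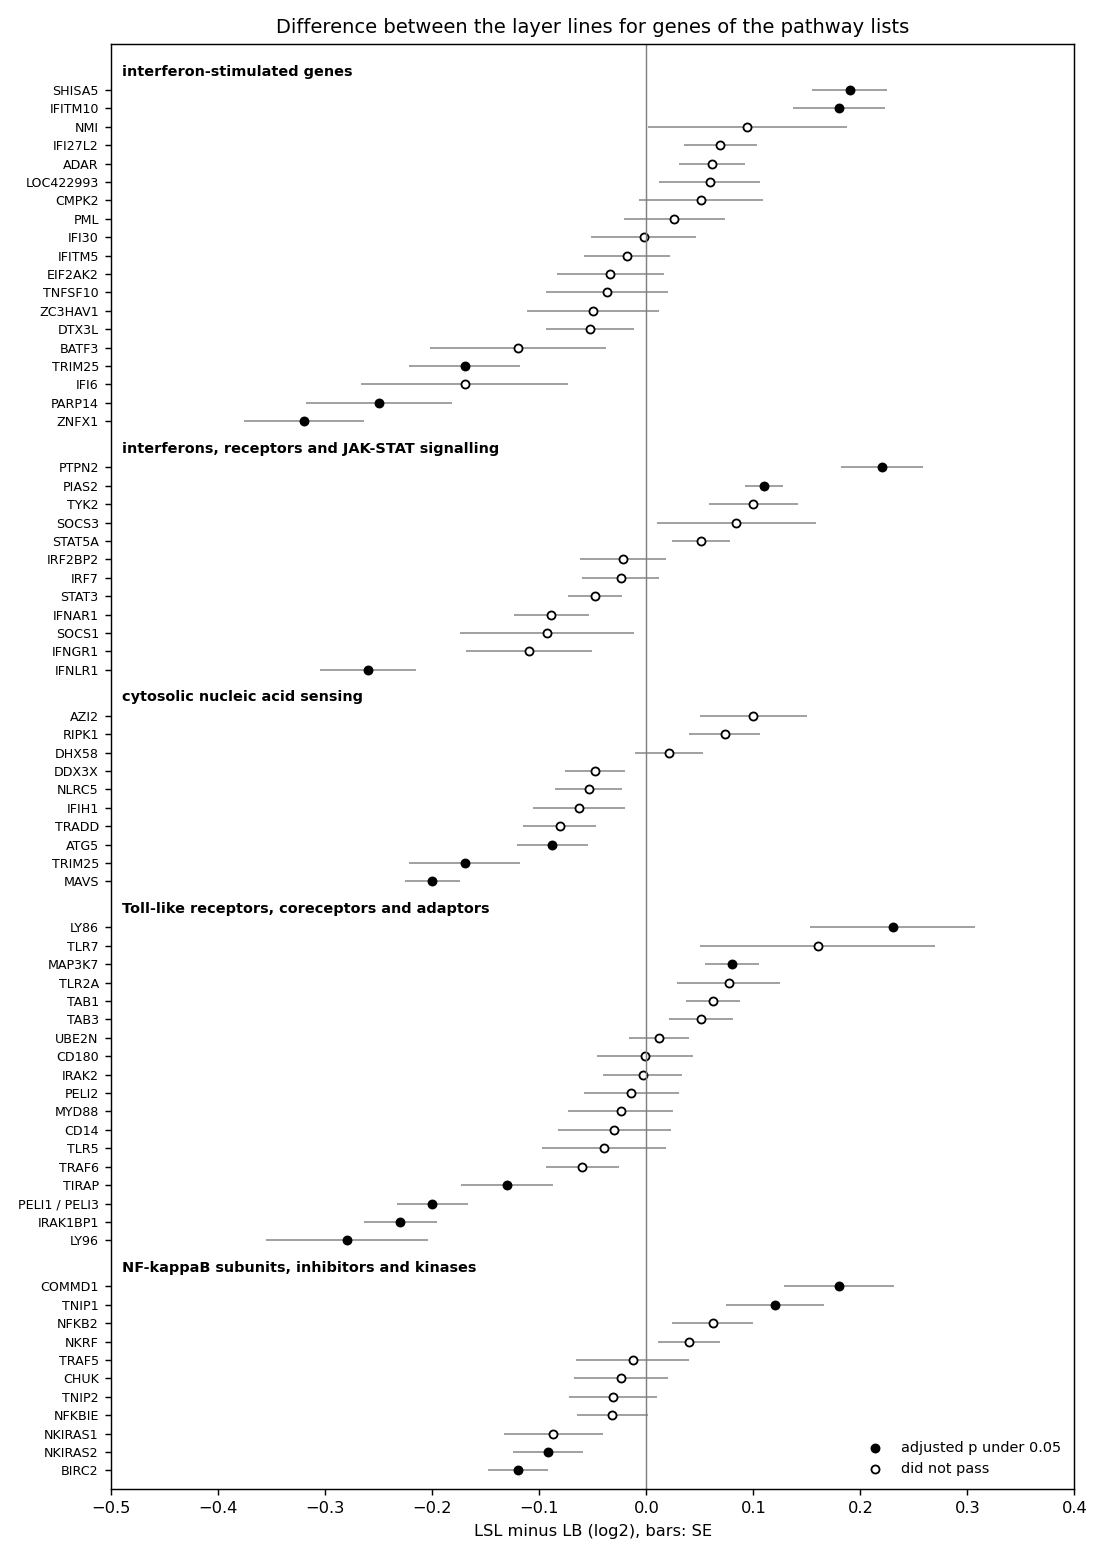
Difference LSL minus LB (log2, bars are the SE) of every tested gene of the 5 pathway lists, without the 6 genes themselves. Filled points passed (adjusted p under 0.05) and open points did not. Differences lie on both sides of 0 in each list, and the longest are -0.32 for ZNFX1 and -0.28 for LY96.

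None of the 69 list genes passed for the group size or the interaction (limma). The smallest p-values for 54 minus 36 belonged to the kinase IRAK2 (0.085, unadjusted p = 0.0185, adjusted p = 0.865), to ATG5 (0.075, unadjusted p = 0.0273, adjusted p = 0.865) and to the RNA sensor DHX58 (-0.068, unadjusted p = 0.0347, adjusted p = 0.865). For the interaction they belonged to TRAF5 (-0.25, unadjusted p = 0.0161), to the cytokine signal inhibitor SOCS1 (0.31, unadjusted p = 0.0565) and to the antiviral RNA-binding protein ZC3HAV1 (-0.22, unadjusted p = 0.0799), each with an adjusted p of 1.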

How the data were processed

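Expression was measured on 60 Affymetrix chicken gene arrays, 1 per hen. The authors deposited log2 values after robust multi-array averaging (RMA) with quantile normalisation in GeneSpring, and these log2 values were used as given. The labels name the posterior right cerebrum and the study's methods the posterior left and right side. A second deposited table held the same values. Rows whose mean log2 value was below the 20th percentile (5.08) were left out. The methods name a 20th percentile limit on raw data without the rule per row, so the rule used here is a choice. It was applied after removal of 2 control rows and 1 empty row. Symbols came from the platform annotation, updated for 382 rows through RefSeq (GRCg7b). Of the tested rows, 7453 had 1 symbol, 81 several and 8783 none.

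Each effect was tested on its own with limma 3.58.1 in R 4.3.3 over 16317 rows, with Benjamini-Hochberg adjustment and a threshold of 0.05, after the script had been tested on simulated data. The study's own labels gave the line and the group size. The members, the pathway lists and the marker lists were chosen with earlier results of these data known. Named list genes are at most 4 higher and 4 lower per list, by adjusted p, the 3 genes nearest to each member, the 3 with the smallest p for the other effects, and some chosen after their values were seen. Alternatives were other filters, the other factor as a covariate, array means subtracted, hen pairs or the array set as a block, subsets of hens and the methods' t-test. The number of arrays limits the precision. No sequences were printed.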

Additional observations from a re-analysis of the deposited data

How the results depend on the processing

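The number of rows passing between the lines was 3714 over all hens, 1824 in the groups of 54 alone, 1756 in the groups of 36 alone and 1184 in the smaller array set alone, all of which hold fewer hens. It stayed within 1.5 times of 3714 under the other 10 alternatives, with 2775 for neighbouring hens as a random block and 4747 for the array set as a block. For the group size, 2 rows passed in the smaller set alone and 0 otherwise. Of the 69 pathway list genes, 20 passed over all hens and 7 in the smaller set alone. With the array set as a block, 5 of the 12 interferon receptor and JAK-STAT genes passed (3 without it), and with the random block of neighbouring hens, 2 of the 11 NF-kappaB genes (4 without it), and the cause was not tested. No difference of the 6 genes between the lines was reversed, a description only, since the genes were chosen on this contrast in the same hens. Leaving out hens 4, 7 and 35 was chosen after seeing the data. Taking the median over the rows of a gene changed nothing, since no member or pathway gene had more than 1 tested row. No paired analysis was possible because hens carry no replicate numbers shared between groups.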

Other observations

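Rows below the filter on low values were not tested. They included the interferon-induced RSAD2 (4.28 ± 0.25 in LSL and 4.34 ± 0.23 in LB, SD, n = 30 each) and SAMD9L (4.55 ± 0.18 in LSL and 4.72 ± 0.23 in LB), the interferon gene IFNG (3.83 ± 0.25 in LSL and 3.86 ± 0.16 in LB) and the receptors TLR15 (4.98 ± 0.20 in LSL and 4.88 ± 0.17 in LB) and TLR2 (4.59 ± 0.36 in LSL and 4.56 ± 0.57 in LB).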
